A study of Mus musculus with 550 samples.

Results

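Fibroblast growth factor (FGF) signalling was followed through 10 genes in single cells of mouse embryoid bodies (EBs), the aggregates in which embryonic stem cells differentiate once leukaemia inhibitory factor is withdrawn. The genes were chosen by name and make up 10 of the 55228 gene names in the count table. They were the ligands Fgf4, Fgf8 and Fgf15, the receptors Fgfr1 and Fgfr2, the feedback inhibitors Spry2, Spry4 and Dusp6, and the transcription factors Etv4 and Etv5. EBs were grown without further treatment from E14 cells, an embryonic stem cell line of the 129/Ola strain, that were wild type (WT) or lacked one of the de novo DNA methyltransferases, Dnmt3a -/- (3AKO) or Dnmt3b -/- (3BKO). Cells were isolated at day 3 and day 9, and 486 of 550 passed a filter of at least 50000 reads in genes, at least 2000 genes detected and at most 50% mitochondrial reads. At day 3 this kept 79 WT cells, 83 labelled 3AKO and 80 labelled 3BKO, and at day 9 it kept 89 WT, 88 3AKO and 67 3BKO cells. Every genotype and day was prepared as 2 library batches, with 333 kept cells in batch 1 and 153 in batch 2. The summed cells of 1 genotype, day and batch are called a library here, which gives 12 libraries. The EBs of a clone were pooled before isolation and the labels do not assign cells to clones or cultures, so each genotype and day was 1 sample, a difference between them has no replicate check, and no p-value is given.

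FGF ligands bind receptor tyrosine kinases at the cell surface, which switch on RAS, RAF, MEK and finally the kinases ERK1 and ERK2. ERK raises the transcription of ETV4 and ETV5, which carry the signal into gene expression, and of SPRY2, SPRY4 and DUSP6, which dampen it, so that the level of these genes is widely used as a readout of the pathway. In the early mouse embryo FGF4 comes from pluripotent cells and drives their exit from the naive state, FGF8 is needed for cells to leave the primitive streak, and FGF receptor 1 is the main receptor of the epiblast.

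DNMT3A and DNMT3B add methyl groups to cytosines in CG pairs. The stretches before the start sites of 4 of the genes on which the results turn are therefore shown for their CG content. Methylation was not measured in these files. Each run holds the 250 bases upstream of a RefSeq start site (GRCm38.p6, written 5′ to 3′ on the strand of the gene), and capitals mark every CG pair. The windows lie at chr7:144861136-144861385 on the plus strand for Fgf4, chr14:105896820-105897069 on the minus strand for Spry2, chr10:99262981-99263230 on the plus strand for Dusp6 and chr16:22439571-22439820 on the minus strand for Etv5, each directly before a GENCODE transcript start of its gene.
Fgf4: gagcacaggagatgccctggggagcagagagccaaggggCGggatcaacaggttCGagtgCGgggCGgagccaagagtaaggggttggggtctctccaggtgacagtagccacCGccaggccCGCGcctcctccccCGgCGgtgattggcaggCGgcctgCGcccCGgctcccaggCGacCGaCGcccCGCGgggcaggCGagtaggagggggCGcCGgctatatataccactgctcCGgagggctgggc
Spry2: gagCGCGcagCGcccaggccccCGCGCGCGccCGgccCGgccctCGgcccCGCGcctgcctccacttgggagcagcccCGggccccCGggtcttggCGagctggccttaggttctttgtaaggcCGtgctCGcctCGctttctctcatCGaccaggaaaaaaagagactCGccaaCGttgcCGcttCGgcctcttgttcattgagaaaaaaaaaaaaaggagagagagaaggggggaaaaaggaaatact
Dusp6: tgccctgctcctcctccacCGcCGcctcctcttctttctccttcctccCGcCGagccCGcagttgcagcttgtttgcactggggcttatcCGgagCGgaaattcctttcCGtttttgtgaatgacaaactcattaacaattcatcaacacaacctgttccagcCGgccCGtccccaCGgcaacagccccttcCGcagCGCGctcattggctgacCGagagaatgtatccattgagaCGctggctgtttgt
Etv5: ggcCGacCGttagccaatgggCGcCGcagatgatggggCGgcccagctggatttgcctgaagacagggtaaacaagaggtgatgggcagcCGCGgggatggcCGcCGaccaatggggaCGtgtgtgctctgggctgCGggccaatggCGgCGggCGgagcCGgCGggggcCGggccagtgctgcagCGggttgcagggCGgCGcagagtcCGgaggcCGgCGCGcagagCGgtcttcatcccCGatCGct
The CG count was 21 for Fgf4, 23 for Spry2, 16 for Dusp6 and 27 for Etv5, where the median of all 32851 RefSeq windows of this length was 6. The GC content was 71.2%, 62.4%, 56.4% and 71.2% in that order, against a median of 52.4%. Fgfr2 (2 CG pairs, GC content 44%) and another Etv5 start (18 CG pairs, 62%) also had a window, which is not printed. Neither lies directly before a GENCODE transcript start, and neither held any of the motifs searched below. Spry4, Fgf8, Fgf15, Fgfr1 and Etv4 had no window, so the printed windows do not stand for all the genes followed. Both strands were searched for 4 short motifs. The CCAAT-box word ATTGGC was present before Fgf4, Dusp6 and Etv5 and in 13.5% of all windows. The ETS word CCGGAAGT, the AP-1 word TGACTCA and the TATA word TATAAA were in none of these 4 windows and in 2.88%, 4.46% and 12.4% of all windows.

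Kept cells held 54720 to 1450202 reads with a median of 263902, and the median mitochondrial share of a library was 3.58% to 6.31% in batch 1 and 9.09% to 13.5% in batch 2. Batches were therefore also read apart, and shares of cells pool both batches unless stated. At day 9 the deleted genes followed the labels: Dnmt3a had 26.1 and 23.9 CPM (reads of the gene scaled to the same total in every library) in 3AKO batches 1 and 2 against 177 and 144 CPM in WT, and Dnmt3b had 15.9 and 16.8 CPM in 3BKO against 155 and 189 CPM in WT. Dnmt3a was below WT in 3BKO too, at 84.1 and 44.8 CPM, while Dnmt3b in 3AKO stood at 193 and 336 CPM. At day 3 Dnmt3a followed the labels in batch 1 and went against them in batch 2. It had 25.8 CPM in the batch 1 library labelled 3AKO and 12.8 CPM in the batch 2 library labelled 3BKO, whose cell titles both begin with 211, against 587 CPM in the batch 1 library labelled 3BKO and 335 CPM in the batch 2 library labelled 3AKO, whose titles both begin with 210. Dnmt3b lay below the 600 and 523 CPM of WT in all 4, with 261 and 85.1 CPM in the libraries labelled 3AKO and 167 and 185 CPM in those labelled 3BKO. The day 3 mutant libraries are therefore named by label and batch, and their contrasts used batch 1 only unless stated. Epiblast markers were present in all 3 genotypes at day 9, with a summed level of 3626 CPM in WT, 3344 CPM in 3AKO and 5231 CPM in 3BKO, whereas 12 meso-endoderm markers summed to 58.9, 77.3 and 31.8 CPM, with 7 of them at 0 reads in 3BKO, of which Mixl1 was at 0 in WT too. Eomes made up 30.5 of the 31.8 CPM in 3BKO and had 12.1 CPM in WT (log2 ratio 0.01 in batch 1 and 2.33 in batch 2).

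All 10 genes were detected. Fgf4 (ENSMUSG00000050917.5, chr7:144847367-144865243, plus strand) and Fgf15 (ENSMUSG00000031073.6, chr7:144896531-144900953, plus strand) are neighbouring genes in the GRCm38 annotation. The exons of Fgf15 share 386 bases with the opposite-strand genes Gm26793 and Gm39119, those of Fgfr1 share 164 bases with the opposite-strand gene Gm16159, and those of Fgfr2 share 210 bases with Ctbp2. Whether reads were counted by strand is not given in the sources used here, so reads in those stretches are uncertain. Per kilobase of exon in WT EBs, the order at day 3 was Fgf4 (69.8 CPM per kb), Etv5 (54), Dusp6 (37) and Fgf15 (23), then Spry4 (8.01), Fgfr1 (5.51), Etv4 (5.49), Spry2 (5.42), Fgf8 (2.48) and Fgfr2 (0.251). Fgfr1, Etv4 and Spry2 differed from each other by less than each differed between batches. At day 9 Dusp6 was highest (55.9 CPM per kb), followed by Fgf4 (35.8) and Etv5 (32.7), and Etv4 was lowest with batches pooled (0.768), although Fgfr2 was below it in batch 1 (0.597 against 0.916). Fgf4, Etv5 and Dusp6 were thus the highest 3 genes at both days, while Fgf8, Fgfr2 and day 9 Etv4 were detected in at most 15.9% of the cells of any group once depth was made equal.

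**Figure D1:**
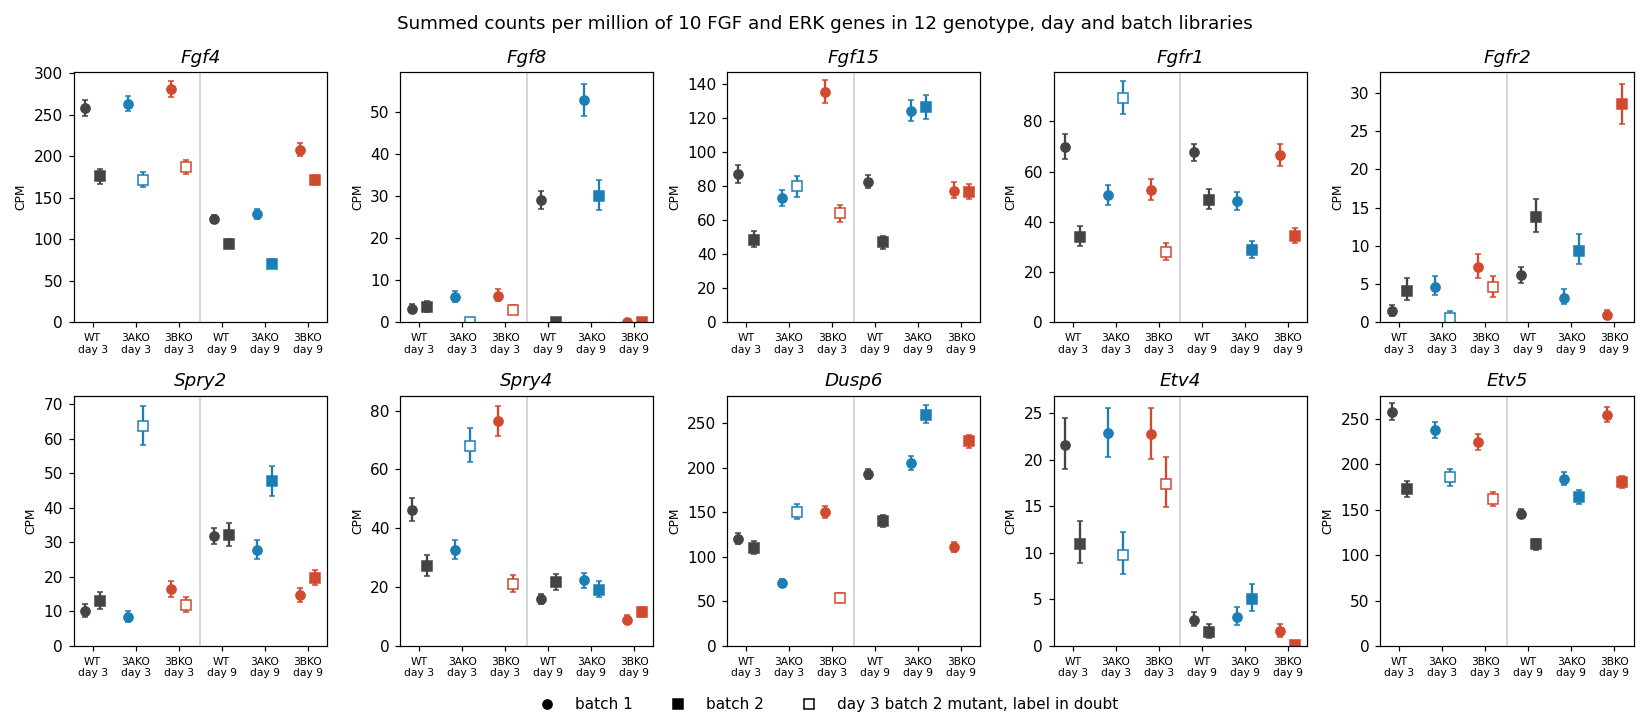
Summed level of the 10 genes in each of the 12 libraries (CPM) by genotype, day and library batch, with exact 95% intervals for counting error. Fgf4 and Etv5 in 3BKO at day 9 (208 and 171 CPM, 255 and 181 CPM) sit above WT in both batches, and Fgf8 has no point above 0 in 3BKO at day 9.

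The first question was how the pathway genes stood in WT EBs at day 9 relative to day 3. Fgf4, the ligand of pluripotent cells, stood at 259 (batch 1) and 176 CPM (batch 2) at day 3, and 125 and 94.6 CPM at day 9. Its day 9 libraries lay below both day 3 libraries, with a log2 ratio of -0.96 (-1.05 in batch 1 and -0.89 in batch 2), just inside the 2-fold limit. Etv5 moved in parallel, from 258 and 173 CPM to 145 and 112 CPM (log2 ratio -0.72). Etv4, its close relative, had 21.6 and 11 CPM at day 3 and 2.84 and 1.51 CPM at day 9, and fell past 2-fold in both batches (log2 ratio -2.41, with -2.56 and -2.26 by batch). Spry2, an inhibitor that acts upstream of ERK, went the other way: it had 10.0 and 13 CPM at day 3 and 31.8 and 32.1 CPM at day 9, and rose past 2-fold in both batches (log2 ratio 1.42, with 1.57 and 1.24 by batch). Its relative Spry4 had 46.3 and 27.2 CPM at day 3 and 16 and 21.8 CPM at day 9, past 2-fold in batch 1 alone (log2 ratio -1.48, against -0.31 in batch 2). Thus the 2 Sprouty genes lay on opposite sides of their day 3 levels.

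Of the 8 genes that had a read in 20% or more of the cells at either day, in both batches, 1 rose (Spry2) and 1 fell (Etv4) by at least 2-fold with the same sign in both batches, where 7.44% of all 10162 genes tested did so (5.25% higher and 2.19% lower). The median log2 ratio was 0.08 over all 10 genes, -0.36 over the 8 of them tested and 0.19 over all genes tested. That 0.19 depends on the scaling: it moved by -0.12 when mitochondrial genes and the gene model Gm42418 were left out of the denominator, by -0.15 with TMM factors and by -0.19 with median-ratio factors, and the share of called genes that were higher went from 70.5% to 54.8%, 44.3% and 47.7%. Spry2 was higher and Etv4 lower under all 3 scalings, but neither passed 2-fold in both batches with a pseudocount of 10 CPM (pooled log2 ratio 0.98 and -1.13), nor did Spry2 with the mean of single-cell CPM. The batches of the 2 days overlapped for Fgf15 and Fgfr1. Fgf15, the mouse counterpart of human FGF19, had 86.9 and 48.6 CPM at day 3 and 82.5 and 46.8 CPM at day 9, and Fgfr1 had 69.7 and 34 CPM at day 3 and 67.7 and 48.8 CPM at day 9. Dusp6, the phosphatase that inactivates ERK, had 120.5 and 110 CPM at day 3 and 193 and 140.3 CPM at day 9 (log2 ratio 0.59).

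The share of cells with a read was compared after each cell was thinned to 50000 reads, since deeper cells detect more genes. Intervals are exact 95% binomial intervals and, like those of CPM, cover counting error only, because reads amplified without molecular identifiers are not independent molecules. In WT, Spry2 was detected in 35.4% of day 3 cells and 60.7% of day 9 cells (difference 25.2 points, 9.32 to 39.8), whereas Etv4 went from 36.7% to 6.74%, Spry4 from 59.5% to 25.8% and Fgf4 from 86.1% to 57.3%. Dusp6 was detected in 82.3% of day 3 cells and 61.8% of day 9 cells although its summed level was higher at day 9. In batch 1 the day 9 signal of Dusp6 was therefore spread over fewer cells at higher levels (difference in share -27.0 points, -42.5 to -9.80). In batch 2 the shares differed within counting error (-6.48 points, -31.9 to 20.6).

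The main question of the design was how loss of either methyltransferase bears on day 9 EBs. With the call rule used above, none of the 7 genes tested passed 2-fold in both batches between 3BKO and WT, where 7.84% of 9235 genes did (2.86% higher and 4.98% lower), and none did between 3AKO and WT, where 2.65% of 9201 genes did (1.07% higher and 1.59% lower). Between 3BKO and 3AKO it was again 0 of 7, against 9.46% of 9152 genes (4.56% higher and 4.91% lower). These 3 comparisons share samples and are given side by side. No test over samples was possible for these counts. The median log2 ratio over all 10 genes was -0.16 for 3BKO against WT (all genes tested -0.08), 0.30 for 3AKO against WT (all genes -0.10) and -0.54 for 3BKO against 3AKO (all genes -0.0014). Over the 7 members tested it was -0.0022, 0.22 and -0.38 in that order. The first of these is the pooled ratio of Dusp6, whose batches lay at -0.79 and 0.71, so it does not stand for unchanged genes. Median-ratio factors moved the median of all genes between 3BKO and WT by 0.10. Pooled ratios sum the reads of both batches. At day 9, batch 2 held 16249575 of 30287278 reads in 3BKO and 11953550 of 34821361 reads in WT. A pooled ratio can therefore lie outside the ratios of its batches, as for Fgf4, Etv5 and Spry4 in 3BKO against WT. Differences below 2-fold are described gene by gene.

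Fgf4 was highest in 3BKO. At day 9 it stood at 208 (batch 1) and 171 CPM (batch 2) in 3BKO, 125 and 94.6 CPM in WT, and 131 and 70.8 CPM in 3AKO. Both 3BKO libraries exceeded all 4 libraries of the other genotypes, with no overlap. The share of all genes whose libraries separate like this was not counted, here or for Spry2, Spry4 and Fgf15 below. The log2 ratio to WT was 0.71 (0.66 to 0.77 for counting error), with 0.73 in batch 1 and 0.85 in batch 2, and the ratio to 3AKO was 0.83, whereas 3AKO and WT differed by -0.11 with opposite signs in the batches. More 3BKO cells held a read, 76.1% (64.1 to 85.7) against 57.3% of WT cells, a difference of 18.8 points (2.93 to 33.3). Of 3BKO cells, 73.1% were above the WT median of their batch, which was 0 in batch 2.

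Etv5 was also highest in 3BKO. It had 255 and 181 CPM in 3BKO, 145 and 112 CPM in WT, and 184 and 164 CPM in 3AKO. Within each batch 3BKO was highest and WT lowest, although 3BKO in batch 2 lay just below 3AKO in batch 1. The log2 ratio of 3BKO to WT was 0.68 (0.63 to 0.73), with 0.80 and 0.69 by batch, and that of 3AKO to WT was 0.39. A read of Etv5 was found in 97.0% of 3BKO cells (89.6 to 99.6) against 82% of WT cells, and 76.1% of 3BKO cells were above the WT median. With both batches summed, 3BKO at day 9 had 188 CPM of Fgf4 and 215 CPM of Etv5, where WT at day 3 had 223 and 222 CPM. Summed epiblast markers moved with both genes, at 6322 and 4289 CPM in 3BKO batches 1 and 2 against 4083 and 2753 CPM in WT. Of the 11 markers, Zfp42 (2269 against 963 CPM with batches summed), Nanog (1004 against 561 CPM) and Klf4 (51.3 against 11.5 CPM) were higher in 3BKO. So were Tdgf1 (log2 ratio 0.43), Esrrb (0.33) and Pou5f1 (0.20) by less. Lower in 3BKO were Fgf5 (log2 ratio -4.32), Lefty1 (-1.09, with opposite signs by batch), Utf1 (-0.51) and Dppa4 (-0.25). Pou3f1 (-0.20) was also lower but did not pass the detection limit. The part of these markers in the differences was not tested.

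The inhibitors of the Sprouty family lay lower in 3BKO. Spry2 had 14.7 and 19.8 CPM in 3BKO, 31.8 and 32.1 CPM in WT, and 27.9 and 47.8 CPM in 3AKO, so both 3BKO libraries lay under the other 4. The log2 ratio to WT was -0.84 (-0.98 to -0.69), past 2-fold in batch 1 (-1.06) and not in batch 2 (-0.67), and the ratio to 3AKO was -1.01, with -0.88 and -1.23 by batch. Spry2 was detected in 34.3% of 3BKO cells (23.2 to 46.9), 60.7% of WT cells and 59.1% of 3AKO cells. The 3BKO share lay 26.3 points under that of WT (difference -26.3, -41.5 to -9.66) and was close to the 35.4% of WT cells at day 3. Spry4 had 8.90 and 11.6 CPM in 3BKO, 16 and 21.8 CPM in WT, and 22.3 and 19.2 CPM in 3AKO, again without overlap. Both genes passed 2-fold between 3BKO and 3AKO in both batches once cells were thinned to 50000 reads before summing (-1.24 for Spry2 and -1.42 for Spry4). The unthinned log2 ratio of Spry4 was -0.74 to WT (-0.93 to -0.56) and -0.96 to 3AKO, but its share of cells, 17.9% against 25.8% in WT, differed within counting error (difference -7.93 points, -21.2 to 6.32).

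Dusp6 showed no common direction. It had 111 and 229.6 CPM in 3BKO, 193 and 140.3 CPM in WT, and 205 and 259.6 CPM in 3AKO. The 3BKO batches lay on either side of WT, with log2 ratios of -0.79 and 0.71, and 1 cell held 52.6% of the batch 2 reads. Without that cell the 3BKO batch 2 level was 117 CPM, and the WT level without its own highest cell was 114 CPM. The share of cells with a read, which a single cell cannot set, was 47.8% in 3BKO batch 1 and 47.6% in batch 2, against 61.8% in WT and 73.9% in 3AKO. It differed from 3AKO beyond counting error (-26.1 points, -41.3 to -9.76) and from WT within it (-14.0 points, -30.0 to 2.60).

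**Figure D2:**
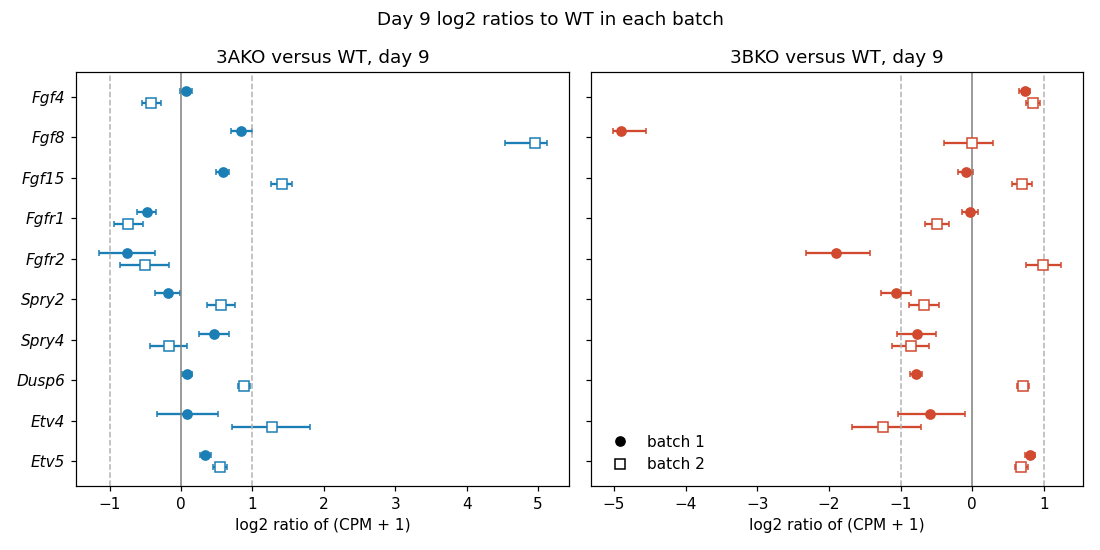
Log2 ratios of summed CPM + 1 at day 9 for the 10 genes in each library batch, for 3AKO against WT and 3BKO against WT, with 95% intervals for counting error. Fgf4 and Etv5 are above 0 and Spry2 and Spry4 below 0 in both batches of 3BKO against WT, while the Dusp6 batches (-0.79 and 0.71) lie on opposite sides of 0.

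Etv4 was near its floor at day 9, with 1.57 and 0.0615 CPM in 3BKO, 2.84 and 1.51 CPM in WT, and 3.08 and 5.05 CPM in 3AKO. A read was found in 2.99% to 7.95% of the cells of a genotype, too few to pass the detection limit, so no order was read from it. Etv4 and Etv5, often described as a pair, thus differed in 3BKO: Etv5 was well detected and above WT, and Etv4 was barely detected in any genotype.

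Among the remaining ligands, Fgf15 was highest in 3AKO by summed level. It had 124 and 126 CPM in 3AKO, 82.5 and 46.8 CPM in WT, and 77.3 and 76.6 CPM in 3BKO, and the 3AKO libraries did not overlap the other 4. Relative to WT its log2 ratio in 3AKO was 0.82, past 2-fold in batch 2 alone (1.41, against 0.58 in batch 1). The share of cells did not follow: 50% of 3AKO cells and 51.7% of WT cells had a read, against 34.3% of 3BKO cells (difference from WT -17.4 points, -32.8 to -0.726). By batch that difference was -22.9 points (-41.1 to -2.59) in batch 1 and -5.42 points (-33.9 to 24.4) in batch 2. Without the highest cell of each 3AKO library its level was 84.6 and 97.8 CPM, and that of WT without its own was 75.6 and 40.2 CPM.

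Fgf8, the primitive streak ligand, was in few cells. At day 9 its WT level was 29 CPM in the first batch and 0 in the second, and it had 52.7 and 30.1 CPM in 3AKO, and 0 in both batches of 3BKO. These reads came from 5 of 60 WT cells of batch 1, none of 29 of batch 2, 10 of 61 and 5 of 27 3AKO cells, and 1 cell held 55.2% of the WT reads and 50% of the 3AKO reads. Against a floor of 3 counts over the 3BKO group (0.0991 CPM), Fgf8 in 3BKO was at least 438-fold lower than in 3AKO (43.3 CPM), a bound for counting error of reads only. No fold is given against WT, whose batch 2 was also at 0. In thinned cells the shares were 5.62% in WT, 15.9% in 3AKO and 0 of 67 cells in 3BKO, which allows a share of up to 4.48% (3 cells of 67) or, by the exact 95% limit, 5.36%. By share, 3BKO differed from 3AKO (-15.9 points, -25.2 to -7.15), while its difference from WT was not detectable at this depth. Fgf8 did not pass the detection limit, so it enters none of the counts above.

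At day 9, fewer of the cells with Fgf8 than of the other cells of their genotype held Zfp42, which marks naive pluripotent cells. It was detected in 0 of the 5 WT cells with Fgf8 and in 66 of the 84 without, and in 3 of 15 against 61 of 73 in 3AKO. At day 3 Zfp42 was in most cells of both kinds, 5 of 7 against 67 of 72 in WT, 7 of 10 against 69 of 73 in cells labelled 3AKO and 9 of 10 against 64 of 70 in cells labelled 3BKO. Streak markers at day 9 went both ways: T was in 1 of 5 against 1 of 84 in WT and 2 of 15 against 0 of 73 in 3AKO, and Eomes in 1 of 5 against 9 of 84 and 1 of 15 against 14 of 73. Nanog was found in both kinds of cell at day 9, with 3 of 5 against 74 of 84 in WT and 14 of 15 against 63 of 73 in 3AKO. These cells came from few libraries and were chosen by their own Fgf8 reads, and the counts are a description.

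Neither receptor gave a difference that passed the call rule at day 9. Fgfr1, whose product is the main epiblast receptor, had 67.7 and 48.8 CPM in WT, 48.2 and 28.9 CPM in 3AKO, and 66.4 and 34.4 CPM in 3BKO. It was lower in 3AKO than in WT in both batches by less than 2-fold (log2 ratio -0.59), and its share of cells was 56.2% in WT, 55.7% in 3AKO and 65.7% in 3BKO. Fgfr2 was in at most 10.1% of the cells of a genotype at day 9, and 67.8% of its reads in 3BKO batch 2 came from 1 cell (28.5 CPM with it and 9.87 CPM without). Its batches disagreed in sign (log2 ratio to WT of -1.90 and 0.99), so no direction was read.

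**Figure D3:**
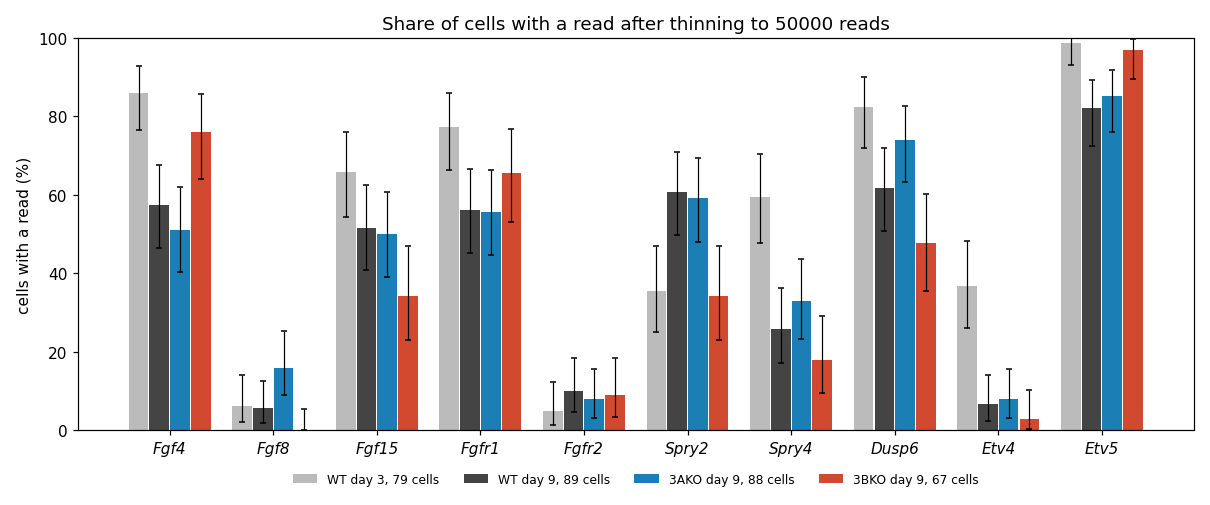
Percent of cells with a read of each gene after thinning to 50000 reads, with batches pooled and exact 95% binomial intervals, for WT at day 3 and the 3 genotypes at day 9. At day 9 the 3BKO share is above WT for Fgf4 (76.1% against 57.3%) and Etv5 (97.0% against 82%) and below it for Spry2 (34.3% against 60.7%).

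The ERK targets were also read cell by cell, as the number of the 5 genes Spry2, Spry4, Dusp6, Etv4 and Etv5 detected after thinning. At least 3 of them were detected in 74.7% of WT cells at day 3 (63.6 to 83.8) and in 50.6% at day 9 (39.8 to 61.3). At day 9 the share was 52.3% in 3AKO (41.4 to 63) and 28.4% in 3BKO (18 to 40.7), with 26.1% and 33.3% in the 3BKO batches. Fewer 3BKO cells thus held several targets together, even though nearly all of them held Etv5. The count weights Sprouty genes as much as Etv5, so it is not a measure of ERK activity.

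At day 3, where the batch 2 labels were in doubt, the contrasts with WT used batch 1. Only Fgfr2 passed 2-fold, both in the library labelled 3AKO (log2 ratio 1.23, 1 of 9 genes tested, against 8.53% of 10858 genes, 5.1% higher and 3.43% lower) and in that labelled 3BKO (1.76, 1 of 9, against 6.04% of 10641 genes, 3.44% higher and 2.6% lower). Its levels were 1.42 CPM in WT, 4.68 CPM and 7.22 CPM, so the ratios rest on a gene near its floor, and neither passed 2-fold after thinning. The median log2 ratio over the 10 genes was -0.18 and 0.47 in that order, and -0.24 and 0.31 over the 9 tested, where that of all genes tested was 0.01 in both. Fgf4 and Etv5 lay within 0.20 of WT on the log2 scale in both, at 0.03 and -0.12 in the library labelled 3AKO and at 0.12 and -0.20 in that labelled 3BKO. The inhibitors spread most: Dusp6 had log2 ratios of -0.76 and 0.31, Spry4 of -0.49 and 0.71, and Spry2 of -0.24 and 0.66 in that order.

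Read by title number instead of label, these inhibitors kept 1 direction over both batches. This comparison was chosen after the data were seen. Dusp6 stood at 150.0 (batch 1) and 150.3 CPM (batch 2) in the libraries numbered 210, 70.7 and 54.2 CPM in those numbered 211, and 120.5 and 110 CPM in WT. Spry4 had 76.3 and 68.1 CPM, 32.7 and 21.1 CPM, and 46.3 and 27.2 CPM in the same order. In both batches WT lay between the 2 numbers for both genes. The log2 ratio of 210 to 211 was 1.07 (0.96 to 1.19) and 1.45 (1.31 to 1.6) for Dusp6 and 1.20 (1.03 to 1.36) and 1.65 (1.42 to 1.87) for Spry4. These were 2 of the 9 genes tested, where 4.01% of 10382 genes passed 2-fold in both batches with the same sign (2.1% higher and 1.91% lower under 210). After thinning, only Spry4 of the 9 passed in both batches.

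**Figure D4:**
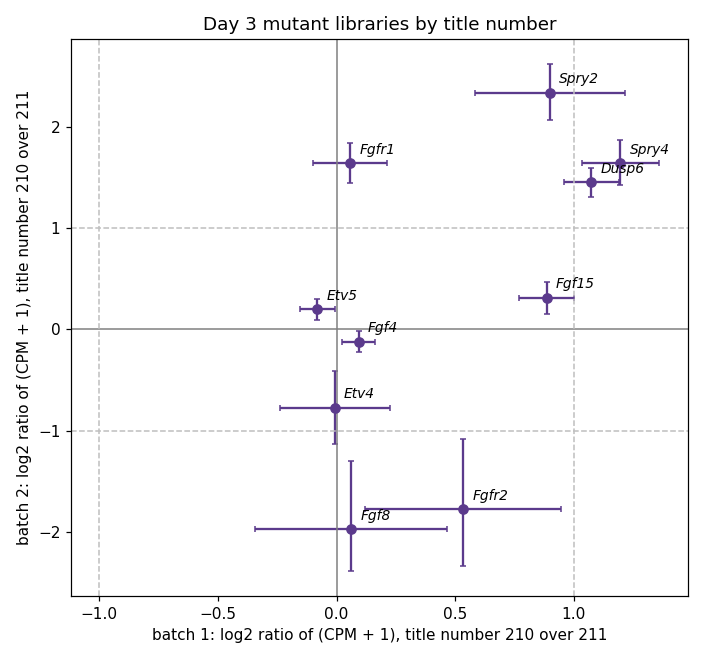
Log2 ratios of the genes at day 3 between the libraries numbered 210 and 211 in the cell titles, with batch 1 set against batch 2 and 95% intervals for counting error. Dusp6 (1.07 in batch 1 and 1.45 in batch 2) and Spry4 (1.20 and 1.65) are past 2-fold towards 210 in both batches.

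Spry2 had the same sign (log2 ratio 0.90 and 2.34), but 1 cell held 45.7% of its reads in the batch 2 library numbered 210, which had 63.7 CPM with that cell and 35.6 CPM without it. Fgf15 was also higher under 210 in both batches (0.89 and 0.31). Fgf4 (0.09 and -0.12) and Etv5 (-0.08 and 0.20) changed sign between batches, and Etv4 was at -0.01 and -0.77. In all, 6 of the 10 genes had the same sign in both batches, where 59% of all detected genes did. As labelled, the sign of Dusp6 and Spry4 turned between batches: 66.7% of cells labelled 3BKO in batch 1 and 15.4% in batch 2 were above the WT median of Dusp6, against 37.9% and 56% of cells labelled 3AKO. The batch 2 labels were not changed, and no genotype is assigned to the 2 numbers from these genes.

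Within each mutant, day 9 was set against day 3 in batch 1 only. In 3AKO, 2 of 9 genes tested rose past 2-fold (Spry2, log2 ratio 1.63, and Dusp6, 1.52) and 2 fell (Fgf4, -1.01, and Etv4, -2.55), against 15.8% of 10523 genes in either direction (7.52% higher and 8.31% lower). In 3BKO, 3 of 9 fell (Etv4, -3.21, Spry4, -2.96, and Fgfr2, -2.09) and none rose, against 25.8% of 10542 genes (12.7% higher and 13% lower). The median log2 ratio over the 10 genes was -0.22 in 3AKO (all genes tested 0.07) and -0.61 in 3BKO (all genes tested 0.04). Over the 9 members tested it was -0.37 in 3AKO and -0.43 in 3BKO. Fgf4 (-0.43), Etv5 (0.18) and Spry2 (-0.15) of 3BKO were within 2-fold of their day 3 levels. With both batches as labelled, Fgf4 alone passed 2-fold in 3AKO and Etv4 alone in 3BKO, and the ratio of Fgfr2 in 3BKO turned to 1.25. In batch 1 Etv4 fell in all 3 genotypes, whereas the rise of Spry2 was found in WT and 3AKO and not in 3BKO, and this difference between genotypes was not tested. With TMM factors the median of all genes in 3AKO moved by -0.12, and the share of its called genes that were higher went from 47.5% to 34%.

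The rest of the pathway was read from a list of 87 other ligands, receptors, signal transducers, inhibitors, targets and heparan sulfate genes, of which 86 were in the table. Between 3BKO and WT at day 9, 1 of 44 tested genes rose, Sdc4, a heparan sulfate proteoglycan (log2 ratio 1.66), and 7 fell, where 2.86% of all genes tested were higher and 4.98% lower. They were the ligand Fgf5, a marker of the formative epiblast (-4.32), the inhibitors Spred1 (-3.54), Spry1 (-1.89) and Il17rd (-1.76), the proteoglycan Gpc3 (-2.12), the heparan sulfate polymerase Ext1 (-1.75) and ERK1 itself, Mapk3 (-1.61). The lower inhibitors were 3 of the 9 other inhibitors tested, beside Spry2 and Spry4 at less than 2-fold. Between 3BKO and 3AKO, 9 of 44 fell and none rose, where 4.91% of all genes were lower and 4.56% higher. The 8 largest were Gpc3 (-2.82), Fos (-2.42), Spred1 (-2.10), Il17rd (-2.09), Ext1 (-2.04), Sdc1 (-1.75), Spry1 (-1.55) and Etv1 (-1.45). Between 3AKO and WT, 1 of 46 rose, the early gene Fos (2.39, with 323 against 61 CPM), and none fell, where 1.07% of all genes were higher and 1.59% lower.

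Between the days in WT, 5 of 52 other pathway genes rose and 3 fell, where 5.25% of all genes rose and 2.19% fell. Those that rose were the early genes Egr1 (2.48) and Fos (1.56), the glypicans Gpc3 (1.91) and Gpc4 (1.86), and the ligand Fgf1 (1.56), and those that fell were Gpc1 (-1.36), the ubiquitin ligase Cbl (-1.35) and the phosphatase Dusp14 (-1.24). In batch 1 of day 3, 4 of 56 were higher (Gpc4, 2.33, Dusp9, 1.77, Dusp14, 1.43, and Ndst1, 1.07) and 1 was lower (Junb, -1.53) in the library labelled 3AKO than in WT, where 5.1% and 3.43% of all genes were. In that labelled 3BKO, 2 of 53 were higher (Jun, 1.26, and Gpc3, 1.14) and 2 lower (Frs3, -2.10, and Sdc4, -1.01), where 3.44% and 2.6% of all genes were. In 3AKO, 8 of 55 rose and 6 fell between the days, against 7.52% and 8.31% of all genes, with the largest ratios for Fos (5.68), Dusp9 (-3.01), Egr1 (2.93), Junb (2.69) and Ier3 (2.65). In 3BKO, 10 of 53 rose and 13 fell, against 12.7% and 13% of all genes, led by Sdc4 (3.69), Frs3 (3.57), Il17rd (-2.81), Fgf5 (-2.64) and Etv1 (-2.52).

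Across the 486 cells, ranks of CPM were centred within each library and correlated by Spearman's method. Cells of a library share a plate but vary in depth, whether they share a culture is not given, and the values are a description. The strongest pair was Fgf4 with Etv5 (rho 0.33), followed by Spry4 with Dusp6 (0.26) and Fgf4 with Fgf15 (0.24). Fgf4 went against Spry2 (-0.17), and Fgf8 against Etv5 (-0.17), which are weak values in sparse counts. By library, Fgf4 with Etv5 had a rho of 0.44 and 0.57 in WT and 0.48 and 0.52 in 3AKO at day 9, and of -0.03 and 0.19 in 3BKO. This difference between genotypes was not tested.

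**Figure D5:**
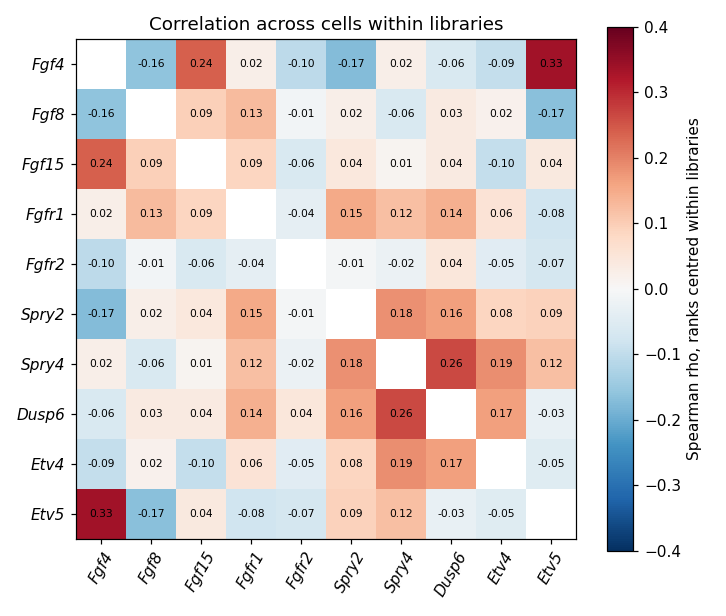
Spearman correlation between the 10 genes across 486 cells, with ranks of CPM centred within each of the 12 libraries. The highest value is that of Fgf4 with Etv5 (0.33) and the next that of Spry4 with Dusp6 (0.26).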

How the data were processed

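Single cells of EBs were sequenced by Smart-seq2 (75 bp single-end reads, no molecular identifiers). According to the study's methods and the submitters' processing notes, reads were checked with FastQC 0.11.2, trimmed with Trim Galore 0.5.0, aligned with STAR 2.7.1a to mm10 (GRCm38) and assigned to exons by gene name with featureCounts 1.6.1, with multi-mapped reads left out. The authors deposited these values as raw counts, whole reads per gene and cell, not normalised. Of the columns in the table, 26 could not be tied to a sample by name and were not used.

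Cells with at least 50000 reads, at least 2000 genes and at most 50% mitochondrial reads were kept, and counts were summed by genotype, day and library batch and scaled to CPM. Precision is set by the depth of 54720 to 1450202 reads per kept cell. Log2 ratios are of CPM + 1, which understates the change of low genes, with intervals from exact Poisson limits. A gene was tested where 20% or more of the cells on either side held a read in every batch used, and called at a 2-fold ratio with the same sign in each. Intervals are at 95%. With 1 sample a group no test over samples was run, and the calls are a rule of size. Batch 1 and batch 2 are the batch tags in the cell titles, which give the plate well of each cell separately.

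The members and lists were chosen with earlier results of these data known. The 10 genes are always named. Of the listed pathway genes, those past 2-fold are named, at most 8 per comparison, and so are the 3 genes most correlated with each member, among genes with a read in at least 20% of kept cells. Gene positions come from GENCODE vM21, and 97.0% of the gene names matched. Overlap of exons was examined for the 10 genes only. Alternatives were other cell filters, thinning, pseudocounts, detection limits, denominators, normalisation factors and single batches. Python 3.11.15, numpy 2.4.6, pandas 2.3.3, scipy 1.17.1, matplotlib 3.10.9 and R 4.3.3 were used, with edgeR 4.0.16 for TMM factors and DESeq2 1.42.0 for median-ratio factors.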

Additional observations from a re-analysis of the deposited data

How the results depend on the processing

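The number of the 10 genes past 2-fold moved in these cases. At day 9, 3AKO against WT gave 0 and, in batch 2 alone, 1 (Fgf15). For 3BKO against WT it gave 0 and, in batch 1 alone, 1 (Spry2). For 3BKO against 3AKO it gave 0, and 2 both with the mean of single-cell CPM and with cells thinned to 50000 reads before summing (Spry2 and Spry4 each time), 1 with detection in 10% of cells or with no detection limit (Fgf8), 1 in batch 1 alone (Spry4) and 3 in batch 2 alone (Fgf4, Fgfr2 and Spry2). In WT between the days it gave 2, and 1 with the mean of single-cell CPM (Etv4), 0 with a pseudocount of 10 CPM and 4 in batch 1 alone (with Fgf4 and Spry4 added). At day 3 the library labelled 3AKO gave 1, and 0 after thinning, with a pseudocount of 10 CPM, with detection in 40% of cells, with both batches as labelled and with the batch 2 mutant libraries exchanged by title number. The library labelled 3BKO gave 1, and 0 in the same 5 cases, and 2 with no cell filter (Spry2 added). Between the days, with both batches as labelled, 3AKO went from 4 to 1 (Fgf4) and 3BKO from 3 to 1 (Etv4), and Fgfr2 in 3BKO turned from -2.09 in batch 1 to 1.25, and to 1.59 with the libraries exchanged. Title number 210 against 211 gave 2, and 1 after thinning, 1 with a pseudocount of 10 CPM and 6 in batch 2 alone. The comparison by title number and both settings that use batch 2 of day 3 were chosen after seeing the data. The cause of these moves was not tested. Over all 1200 alternative log2 ratios of the 10 genes, 902 stayed within the counting interval of the main value, 296 left it and 2 that had been past 2-fold (both Fgfr2) turned, while 47 of the 1200 had the opposite sign to the main value, whether past 2-fold or not, and of 240 shares of cells 204 stayed and 36 moved.

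Each genotype and day was 1 sample, so culture, clone and genotype cannot be told apart. Fgf8, Fgfr2 and day 9 Etv4 rest on few cells, and their ratios are limited by depth. No paired analysis was possible because no group has more than 1 sample and the labels give no replicate numbers shared between groups.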

Other observations

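Ligand and receptor were often found in the same cell. After thinning to 50000 reads, 74.7% of WT cells at day 3 held a read of at least 1 of the 3 ligands and of at least 1 of the 2 receptors, against 46.1% at day 9, where the share was 45.5% in 3AKO and 55.2% in 3BKO. Fgf4 and Fgf15 were found together in 60.8% of WT cells at day 3 and in 31.5% at day 9, with 34.1% in 3AKO and 31.3% in 3BKO. Fgf4 and Fgf8 were together in 0 of 89 WT cells and 2 of 88 3AKO cells at day 9.

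Across the 486 cells, with ranks centred within libraries, the genes most like each member were the following. Fgf4 went with Zfp57, Jam2 and Dppa5a (rho 0.42 each), and with the pluripotency markers Nanog (0.40) and Zfp42 (0.37). Etv5 went with Mybl2 (0.40), Apobec3 (0.36) and Tet2 (0.36), the last of which encodes an enzyme that oxidises methylated cytosine. Fgf15 went with Dnmt3b (0.38), Vrtn (0.33) and Map1b (0.32). Fgf8 went with Car4 (0.34), Pea15a (0.33) and Serf1 (0.33), and against Zfp42 (-0.25). The neighbours of the inhibitors were weaker: Spry4 had Dusp6 (0.26), Gbx2 (0.24) and Slc29a1 (0.23), and Dusp6 had Spry4, Actg1 (0.25) and Hmgb1 (0.24). Those of Spry2 were Car14 (0.21), Pfkl (0.20) and Spry4 (0.18), those of Etv4 were Vim (0.26), Gbx2 (0.25) and Atp5g3 (0.22), and those of Fgfr1 were Mmp2 (0.24), Psat1 (0.23) and Rcbtb2 (0.22). Fgfr2 had Nudt21 (0.19), Ostm1 (0.17) and Abcg2 (0.16), weak values for a gene in few cells.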
